A study of Homo sapiens with 2 samples.

Results

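The Eph receptors and ephrins examined here were 10 genes: the receptors EPHA2, EPHA4, EPHB2, EPHB3, EPHB4 and EPHB6, and the ephrin ligands EFNA1, EFNA5, EFNB1 and EFNB2. A probe set, the group of short probes on the array that reads 1 transcript, was taken when the platform annotation gave it exactly 1 of these symbols. This found 19 of the 54675 probe sets on the array, for 9 of the 10 genes. EPHB2 had none under a single symbol and was not analysed here. The rule uses gene names and no signal, although the family was picked with earlier results of these data known.

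The samples were HCC15 cells, an established human lung cancer line that the labels call squamous, grown in RPMI medium with 5% serum. Cells transfected with a CTNNB1 siRNA, directed at the beta-catenin transcript, were compared with cells given a control siRNA, and both were collected 48 h after transfection. The sample title of the control carries the word Tax, and its siRNA has no stated target in them. Each group was 1 biotin-labelled Affymetrix array, so every value is a single measurement without a replicate and no test between the groups was possible.

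Eph receptors are the largest family of receptor tyrosine kinases. Their ligands, the ephrins, sit on neighbouring cells, held by a lipid anchor in the A class and by a transmembrane segment in the B class, so that signals pass into both cells at a contact. The family is known for cell repulsion, sorting and boundary formation. In the intestinal crypt, Wnt signalling through beta-catenin keeps the receptors EPHB2 and EPHB3 high and the B-class ephrins low, which is the background to examining the family after a CTNNB1 knockdown.

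The siRNA target was lower. The CTNNB1 probe set with the highest mean signal (201533_at) read 339 with CTNNB1 siRNA and 1224 with control siRNA, 27.7% of the control. The log2 ratio, CTNNB1 siRNA over control siRNA throughout, was -1.85 for CTNNB1, -1.73 for AXIN2, a feedback target of beta-catenin, -3.07 for the Wnt inhibitor NKD1 and -2.11 for the R-spondin receptor LGR5. The other CTNNB1 probe sets read 51% (1554411_at) and 91.3% (223679_at) of the control, and the median log2 ratio over the entering CTNNB1 probe sets was -0.97. Dim probe sets of LGR5 (210393_at, 51.7 with CTNNB1 siRNA and 39.1 with control siRNA) and AXIN2 (224498_x_at, 35.7 with CTNNB1 siRNA and 20 with control siRNA) were higher with CTNNB1 siRNA, and the dim AXIN2 probe sets 222695_s_at and 224176_s_at were lower. With the floor at the median of all values the ratios were -1.37 for LGR5 and -2.59 for NKD1, and the median over NKD1 probe sets was -3.74. All 5 epithelial markers passed the signal filter, with signals of 594 to 12013 with CTNNB1 siRNA and 533 to 11116 with control siRNA. Of 6 squamous markers, 4 had a probe set and 1, SOX2, passed the filter (41.6 with CTNNB1 siRNA and 60.1 with control siRNA). TP63 and KRT6A had no probe set of a single symbol and could not be read. The squamous label was not borne out by the 4 genes that had a probe set, and the list is incomplete. In the endothelial, leukocyte and fibroblast lists 1 of 4, 1 of 3 and 3 of 4 markers passed the filter. With 1 probe set per marker, the summed signals of these 3 lists were 135, 105 and 258 with CTNNB1 siRNA and 174, 134 and 351 with control siRNA, the VWF probe sets lay under the floor on both arrays, and the part of such signals in the family's values was not tested.

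A probe set was kept (entered) if its signal, averaged over both arrays, reached 49.1, the median of the deposited values, and signals under 13.8, the 25th percentile, were set to that floor before ratios were taken. Each gene was then read from whichever entering probe set had the highest average. By this rule 6 members entered, EFNA1, EFNA5, EFNB1, EPHA2, EPHB4 and EPHB6, and EFNB2, EPHA4 and EPHB3 had only dimmer probe sets. As a measure of error, log2 ratios of entering probe sets of the same gene had a pooled SD of 0.42 over 5791 genes. That SD was 0.29 for probe sets with a mean signal of at least 209 and 0.52 for dimmer ones, and it does not cover variation between cultures.

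None of the 6 entering genes was at least 2-fold lower or higher with CTNNB1 siRNA, while among all 12531 entering genes 2.38% were lower by that much and 2.29% higher. The member log2 ratios ran from -0.69 to 0.87 with a median of 0.32, against a median of 0.15 over all genes. With the median over probe sets taken for each gene, the members were at 0.13 and all genes at 0.14. In every other processing setting tried, the member median was above that of all genes. Of the 6 genes, 4 lay above the all-gene median and 2 below it, and 5 were above 0, as were 64% of all entering genes. Among the 4, EPHA2 lay only 0.003 above the all-gene median, and EPHB4 was at -0.16 when the median of its probe sets was taken. At the level of single probe sets, 8 of the 19 entered, against 27151 of 54675 on the whole array. Of these 8, 6 were above 0 and 2 were below it. Of the 8, 1 was at least 2-fold lower, an EPHB4 probe set, where 2.42% of all entering probe sets were. None was at least 2-fold higher, where 3.48% of all entering probe sets were. All directions here carry the 0.15 shift of the deposited values, so ratios are also given relative to it.

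**Figure D1:**
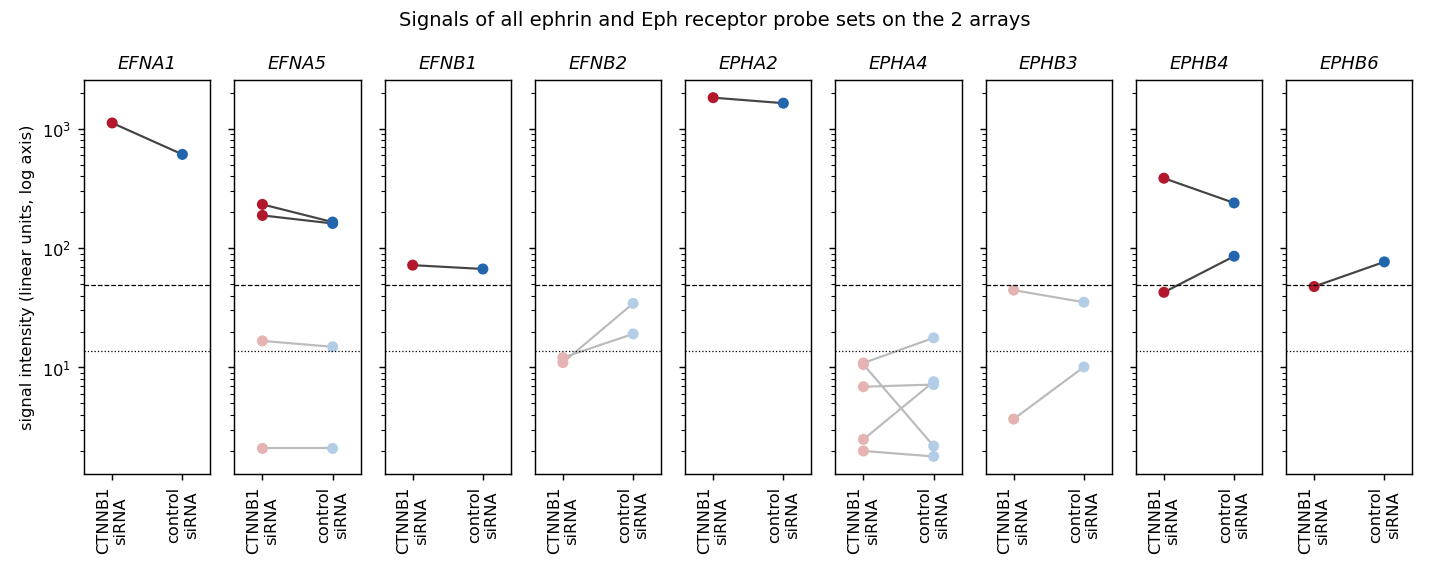
Signals of the 19 probe sets (linear units on a log axis), each drawn as a line between its CTNNB1 siRNA value (left) and its control siRNA value (right), with 1 array per group. The dashed line marks the filter at 49.1 and the dotted line the floor at 13.8. Pale lines are probe sets that did not enter, and the 2 entering EPHB4 probe sets cross in direction.

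Among the A-class ligands, EFNA1 had the largest ratio of all members. EFNA1, the ligand best known for binding EPHA2, read 1115 with CTNNB1 siRNA and 608 with control siRNA on its only probe set (202023_at), 183% of the control. Its log2 ratio of 0.87, which includes the 0.15 shift of all genes, was 2.07 times the probe set SD. It was 0.72 after removal of the all-gene median. Of all entering genes, 96.4% had a lower ratio, and of the genes in the same decile of mean signal, 97%, with 1.83% of that decile past 2-fold. The ratio was between 0.63 (loess) and 1.01 (arrays scaled to a common median), and this common-median scaling was the only one of 10 alternative settings in which it passed 2-fold. A single probe set gives no second reading of EFNA1 within these arrays.

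EFNA1 lies next to EFNA3 and EFNA4 on chromosome 1 in the RefSeq annotation. EFNA4, another A-class ligand, had a log2 ratio of 0.24 (118 with CTNNB1 siRNA against 100.2 with control siRNA), below the probe set SD. EFNA3 did not enter and read 30.2 with CTNNB1 siRNA and 23.7 with control siRNA. Neither neighbour had a ratio as large as that of EFNA1.

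EFNA5, a ligand of A-class receptors that also binds EPHB2, was represented by 4 probe sets. Both entering ones were higher, at 232 with CTNNB1 siRNA against 165 with control siRNA (227955_s_at) and 188 with CTNNB1 siRNA against 161 with control siRNA (214036_at), log2 ratios of 0.49 and 0.22. Their gap of 0.27 is smaller than the median gap of 0.46 among genes with several entering probe sets. The _s_at ending of 227955_s_at marks probes that can take signal from related sequences, and without such probe sets EFNA5 was at 0.22. Relative to the all-gene median the ratios were 0.34 and 0.07, both within the probe set SD of 0.42. The remaining probe sets were dim, at 16.7 with CTNNB1 siRNA and 14.9 with control siRNA for 233814_at and at 2.1 on both arrays for 207301_at.

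The B-class ligands gave little signal. EFNB1, a transmembrane ligand of EPHB receptors, read 71.9 with CTNNB1 siRNA and 66.8 with control siRNA (202711_at), a log2 ratio of 0.11 that became -0.04 after centring on the all-gene median. EFNB2, the transmembrane ligand of EPHB4 with a known role in vessels, was lower on both of its probe sets, but neither passed the filter. On 202668_at it read 11 with CTNNB1 siRNA, under the floor, and 34.4 with control siRNA, and was at least 2.49-fold lower. On 202669_s_at it read 12.1 with CTNNB1 siRNA, also under the floor, and 19.1 with control siRNA, at least 1.38-fold lower. Among all probe sets that did not enter, 10.7% were at least 2-fold lower, a larger share than the 2.42% of entering ones. With the floor at the median of all values, both EFNB2 ratios were 0, and the loess value of 202668_at was -0.97.

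Among the A-class receptors, EPHA2 differed little between the arrays. EPHA2, a receptor with known roles in epithelial cells and carcinomas, read 1816 with CTNNB1 siRNA and 1633 with control siRNA on its only probe set (203499_at). The log2 ratio of 0.15 was that of the all-gene median, and it was -0.13 after quantile normalization and -0.12 after loess. EPHA2 thus had a ratio 0.72 lower, on the log2 scale, than that of its ligand EFNA1 in the same cells, a difference between single readings that has no test.

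EPHA4, a receptor that binds ephrins of both classes, was at or near the bottom of the signal range. Of its 5 probe sets none entered, and 4 lay under the floor on both arrays, between 2 and 10.6 with CTNNB1 siRNA and between 1.8 and 7.6 with control siRNA. The fifth (227449_at) read 10.9 with CTNNB1 siRNA and 17.7 with control siRNA. No fold is given for the 4, since values under the floor have no order.

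Among the B-class receptors, EPHB4 gave the clearest disagreement between probe sets. EPHB4, the receptor of ephrin-B2, read 384 with CTNNB1 siRNA and 239 with control siRNA on 202894_at, a log2 ratio of 0.69. Its second entering probe set (216680_s_at) read 42.6 with CTNNB1 siRNA and 85.4 with control siRNA, 49.9% of the control, which is just past 2-fold lower. That probe set is dim, with a mean signal of 64, and its _s_at ending marks probes that can take signal from related sequences. The probe set SD was 0.52 for mean signals under 209. EPHB6, with a mean signal of 62.1, fell in a signal decile where 13.4% of genes were past 2-fold. With the 0.15 shift of all genes included, the ratio of 202894_at is 1.62 times the probe set SD upward. After removal of the all-gene median it was 0.54. The ratio of 216680_s_at passes the 2-fold rule downward, and the gap between the 2 probe sets is 1.69. Among 5791 genes with several entering probe sets, 147 (2.54%) had a gap at least as wide, and 1.35% of the 3266 genes with exactly 2 did. These shares cover entering probe sets of every brightness and were not matched for low signal.

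The sign at the gene level therefore depended on the probe set taken. The median over both EPHB4 probe sets was -0.16, whereas 202894_at stayed between 0.51 and 0.82 in the 6 alternative scalings and floors. Over the same settings 216680_s_at stayed between -1.15 and -0.80 and was at least 2-fold lower in 2 of them. Which transcripts each probe set reads is not given in the sources used here, and the cause of the disagreement was not tested.

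EPHB3, a receptor named among beta-catenin targets in the intestine, did not enter. Its probe set with the highest signal (204600_at) read 44.4 with CTNNB1 siRNA and 35.2 with control siRNA, a log2 ratio of 0.34. The second (1438_at) read 3.7 with CTNNB1 siRNA and 10.1 with control siRNA, under the floor on both arrays. With the floor at the 10th percentile of all values, 1438_at had a log2 ratio of -1.23, a bound since its CTNNB1 siRNA signal lay under that floor as well. At that floor, the EPHA4 probe sets under 13.8 on both arrays ranged from -0.82 to 1.30, so no direction is read from 1438_at. EPHB3 thus had no entering probe set to place beside those of NKD1, AXIN2 and LGR5. Those genes were 8.42-fold, 3.31-fold and 4.3-fold lower on the same arrays.

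EPHB6, a receptor whose kinase domain is inactive, was the only entering member whose gene-level ratio was below 0. It read 47.6 with CTNNB1 siRNA and 76.6 with control siRNA on its only probe set (204718_at), 62.1% of the control. The log2 ratio of -0.69 was -0.84 relative to the all-gene median and stayed between -0.84 and -0.55 in the 9 alternative settings in which it entered. Of these settings, only the scalings and the floor at the median changed its value. In its decile of genes by signal, the dimmest, the median log2 ratio was -0.23, 13.4% of genes were past 2-fold, and 21.3% had a ratio lower than that of EPHB6.

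**Figure D2:**
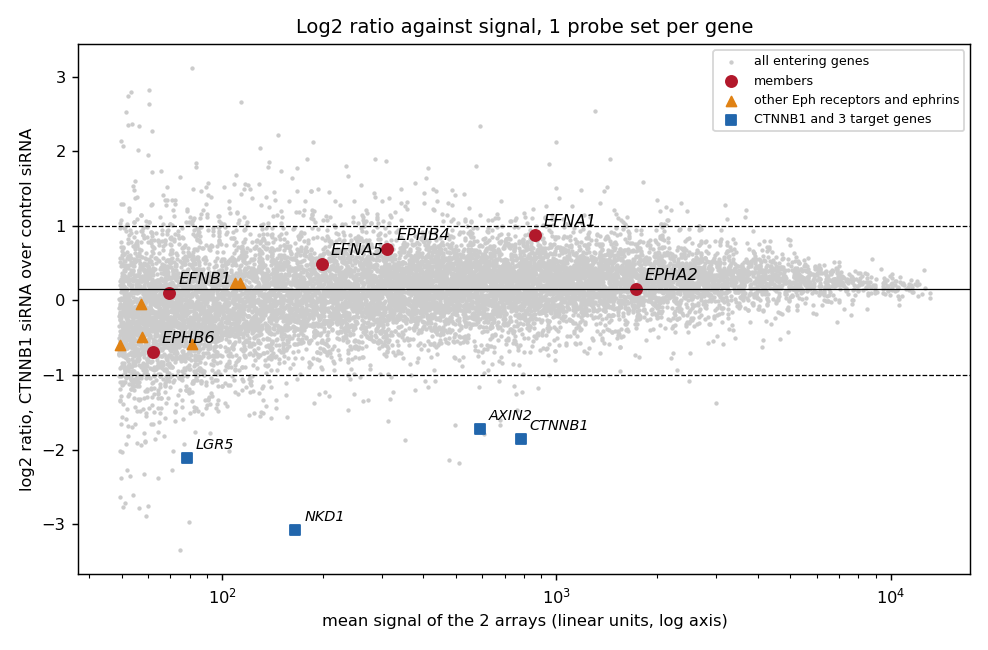
Log2 ratio of CTNNB1 siRNA over control siRNA against mean signal (log axis) for the 12531 entering genes, 1 probe set per gene. Members are red circles, the 6 other entering Eph receptor and ephrin genes orange triangles, and CTNNB1 with 3 target genes blue squares. Dashed lines mark 2-fold and the solid line the all-gene median of 0.15, and no member lies outside the dashed lines.

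The upstream sequences of the 3 members with the largest gene-level ratios, EFNA1 and EPHB4 upward and EPHB6 downward, are shown because the study asks about targets of beta-catenin, which acts on promoters through TCF/LEF factors. Each is the 250 bases before the RefSeq start of the gene, from the GRCh38.p14 table, 5′ to 3′ on the gene's strand, with every CG in capitals.
EFNA1, chr1:155127626-155127875, plus strand: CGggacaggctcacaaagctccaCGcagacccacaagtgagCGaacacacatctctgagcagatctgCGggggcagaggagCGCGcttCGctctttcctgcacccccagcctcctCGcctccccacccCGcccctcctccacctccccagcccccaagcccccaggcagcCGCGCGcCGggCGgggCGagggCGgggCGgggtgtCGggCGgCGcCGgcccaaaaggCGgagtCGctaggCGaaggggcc
EPHB4, chr7:100827524-100827773, minus strand: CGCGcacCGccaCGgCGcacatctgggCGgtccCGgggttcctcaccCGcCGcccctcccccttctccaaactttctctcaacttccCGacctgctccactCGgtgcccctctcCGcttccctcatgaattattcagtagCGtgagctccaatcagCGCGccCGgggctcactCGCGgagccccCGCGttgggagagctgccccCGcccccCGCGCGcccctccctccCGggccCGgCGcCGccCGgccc
EPHB6, chr7:142862506-142862755, plus strand: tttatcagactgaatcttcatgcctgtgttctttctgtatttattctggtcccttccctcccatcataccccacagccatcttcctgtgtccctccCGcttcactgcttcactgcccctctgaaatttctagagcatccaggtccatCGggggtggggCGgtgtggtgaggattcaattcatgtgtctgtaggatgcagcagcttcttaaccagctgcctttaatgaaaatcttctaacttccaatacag
The EFNA1 and EPHB4 windows hold 24 and 29 CG dinucleotides and are 73.2% and 72.8% G or C, whereas the EPHB6 window holds 3 and is 48% G or C. Over the 12 windows listed for the 10 genes the median was 26.5 CG dinucleotides, against 11 over all 35116 windows in the table. The 12 include an EPHB2 window starting at 22710588 and another starting at 22710589, nearly the same sequence, although EPHB2 had no signal to analyse here. The TCF/LEF letters CTTTGAA or CTTTGAT or CTTTGTA or CTTTGTT, searched on both strands, were in none of the 12 windows and in 12% of all windows of that length. This says only that these letters are not in these 250 bases.

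The other Eph receptors were dim. All 8 had probe sets, 3 entered, and none of these was past 2-fold. Log2 ratios were -0.58 for EPHA8, -0.49 for EPHA7 and -0.05 for EPHA6, receptors best known from the nervous system, with a median of -0.49. EPHA6 was above 0 in 3 of the 9 alternative settings in which it entered. All 3 had signals between 48 and 65.3 with CTNNB1 siRNA and between 58.3 and 97.5 with control siRNA, in the range where ratios of all genes run low. EPHA1, EPHA3, EPHA5, EPHA10 and EPHB1 did not enter. Among their probe sets 1, of EPHA3 (211164_at), was at least 2-fold higher, with 30.4 with CTNNB1 siRNA against 10.6 with control siRNA, where 6.02% of all probe sets that did not enter were.

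Of the 4 other ephrins 3 entered, with none past 2-fold. EFNB3, a B-class ligand, had a log2 ratio of 0.23 (122 with CTNNB1 siRNA against 104 with control siRNA), similar in size to that of EFNA4, and EFNA2, an A-class ligand, of -0.60 (39.4 with CTNNB1 siRNA against 59.6 with control siRNA). The median of the 3 was 0.23. The EFNB3 and EFNA4 probe sets end in _x_at and _s_at, a suffix for probes that can take signal from related sequences, and without such probe sets EFNA2 alone remained. A dim EFNA2 probe set (208256_at) was at least 2.11-fold lower, with 2.3 with CTNNB1 siRNA against 29.1 with control siRNA. Across all 21 family genes with probe sets, 14 of 50 probe sets entered and 15 lay under the floor on both arrays. On the whole array 27151 of 54675 probe sets entered.

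**Figure D3:**
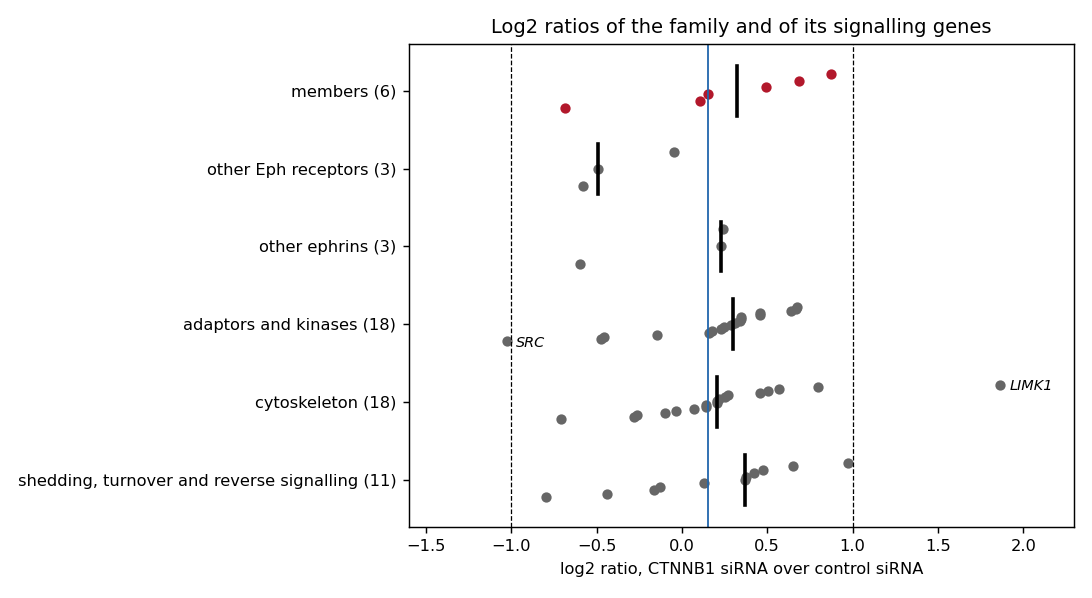
Log2 ratios (CTNNB1 siRNA over control siRNA) of entering genes, 1 point per gene, for the members, the rest of the family and 3 lists of Eph signalling genes, with the number of genes in brackets. Black bars are medians, the blue line is the all-gene median of 0.15 and dashed lines mark 2-fold. SRC and LIMK1 are the only genes past them.

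Eph signalling runs through adaptors and kinases to the actin cytoskeleton. Of 57 genes in 3 lists of such components, 47 entered, 1 was lower by 2-fold or more and 1 higher, against 2.38% and 2.29% of all genes. Their median log2 ratio was 0.25, with 30 above the all-gene median and 17 below it. These counts were not matched for signal. The median ratio of all genes was -0.23 in the dimmest decile of signal and 0.27 in the brightest. After quantile normalization the 3 list medians were 0.03, -0.01 and 0.13, against -0.03 over all genes. Over the 10 alternatives the medians of the lists ran from 0.03 to 0.43 for adaptors and kinases, from -0.02 to 0.34 for the cytoskeleton and from 0.02 to 0.51 for shedding, turnover and reverse signalling, and the cytoskeleton median was below 0 after quantile normalization and loess. Genes with no probe set of a single symbol, CRK, RASA1, CHN2 and PAK1 among them, were not analysed here.

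Among adaptors and kinases 18 of 21 genes entered, with a median log2 ratio of 0.30. SRC, a kinase that acts below Eph receptors and phosphorylates B-class ephrins, was 2.03-fold lower on a dim probe set (1558211_s_at, 39.7 with CTNNB1 siRNA against 80.7 with control siRNA). It was under 2-fold after quantile normalization, loess and common-median scaling and with the floor at the median, and the dim SRC probe sets 1565080_at and 221281_at were lower while 221284_s_at was higher. PTK2, the focal adhesion kinase, had a log2 ratio of 0.67 (2931 with CTNNB1 siRNA against 1836 with control siRNA), and its 4 probe sets all lay between 0.47 and 0.90. ABL1 and ABL2, kinases of the Abl family, had 0.67 and 0.64. INPPL1, the lipid phosphatase SHIP2 that binds EPHA2, had -0.48 (234 with CTNNB1 siRNA against 325 with control siRNA).

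In the cytoskeleton list, which holds GTPases, their exchange factors and actin regulators, 18 of 21 genes entered, with a median of 0.21. LIMK1, the kinase that inactivates cofilin, was 3.64-fold higher (204357_s_at, 485 with CTNNB1 siRNA against 133 with control siRNA), although its dim probe set 208372_s_at read 42.8 with CTNNB1 siRNA and 38.4 with control siRNA. The third LIMK1 probe set (204356_at) lay under the floor on both arrays. LIMK1 was past 2-fold in each of the 9 alternative settings in which it entered, but only the 4 scalings changed its value. Its probe set 204357_s_at also has the _s_at ending, and without such probe sets LIMK1 did not enter. The GTPase CDC42 had a log2 ratio of 0.80 (208728_s_at, 1832 with CTNNB1 siRNA against 1053 with control siRNA) with 0.22 to 0.66 on its other entering probe sets. A dim one (214230_at) was 3.16-fold lower. Without _x_at and _s_at probe sets CDC42 was at 0.66. The exchange factors had 0.57 for TIAM1, 0.51 for ITSN1 and -0.71 for VAV3, and the entering ITSN1 probe sets went both ways, from -0.47 to 0.53. VAV3 read 42.7 with CTNNB1 siRNA and 69.8 with control siRNA on its only entering probe set (218807_at). It fell in the dimmest decile of genes, where 20.3% had a lower ratio, and its other probe sets lay under the floor on both arrays. RHOA, RAC1 and ROCK1 were named after their values were seen and had 0.21, 0.20 and -0.27. RHOA and RAC1 were at -0.03 and -0.04 after quantile normalization and at -0.04 and -0.05 after loess. Of the 4 entering RAC1 probe sets, the dimmest (1567457_at) was 2.52-fold lower, with 97.5 with CTNNB1 siRNA against 245.9 with control siRNA.

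Among genes of shedding, turnover and reverse signalling 11 of 15 entered, with a median of 0.37 and none past 2-fold. CBL, the ubiquitin ligase that marks activated receptors for degradation, had the largest ratio of the list, 0.97 (1491 with CTNNB1 siRNA against 761 with control siRNA). Its other entering probe sets gave 0.88 (225234_at) and 1.03 (243475_at), so that all 3 lay within 0.16 of each other. PTPN13, a PDZ-domain phosphatase, had 0.65, and PTPRO, a phosphatase that acts on Eph receptors, had 0.48. Of the 3 PTPRO probe sets only 1 entered (211600_at), and the others lay under the floor on both arrays. MMP14, a membrane metalloproteinase, had -0.79 (91.6 with CTNNB1 siRNA against 159 with control siRNA). Of its 3 dimmer probe sets, 202827_s_at read 20.5 with CTNNB1 siRNA and 20.2 with control siRNA. The others lay under the floor on both arrays. In a bulk RNA measurement of this kind, fewer cells expressing a gene and less RNA per cell cannot be told apart.

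**Figure D4:**
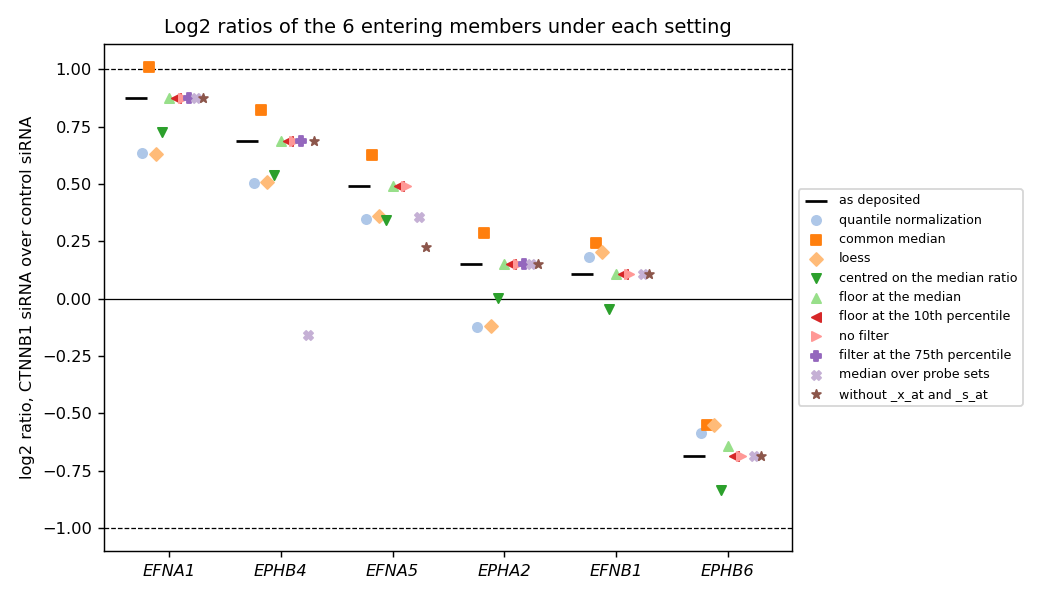
Log2 ratios (CTNNB1 siRNA over control siRNA) of the 6 entering members as deposited (black bars) and under the 10 alternative settings (symbols), with dashed lines at 2-fold. EFNA1 ran from 0.63 to 1.01 and EPHB6 from -0.84 to -0.55, while EPHB4, EPHA2 and EFNB1 each changed sign in at least 1 setting.

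Setting the members in order of their gene-level log2 ratios gave EFNA1 (0.87), EPHB4 (0.69), EFNA5 (0.49), EPHA2 (0.15), EFNB1 (0.11) and EPHB6 (-0.69). Each of the first 5 lay within the probe set SD of 0.42 of its neighbour in that order, and EPHB6 lay 0.79 below EFNB1. That SD describes single ratios, and a difference between 2 genes varies more than either ratio. For dim probe sets such as those of EFNB1 and EPHB6 the SD was 0.52. The gap therefore does not show that EPHB6 stands apart. EFNA1 and EFNA5 lay above the all-gene median, as did EFNA4, an A-class ligand outside the 10 genes. EFNA2, another A-class ligand outside them, lay below it, in the dimmest decile of genes, where the median ratio was -0.23. The receptors lay on either side of the all-gene median. EFNA1, EFNA5 and EPHB6 kept their direction in every alternative in which they entered. Filters and probe set choices could not change the values of EFNA1 and EPHB6, each read from its only probe set.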

How the data were processed

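Total RNA of HCC15 cells was measured on 2 arrays, 1 per group, and the deposited table holds 1 linear signal intensity per probe set and array. MAS5 was the authors' tool, per the submitters' processing notes. No MAS5 version, scaling target or detection call was found in the labels. The deposited intensities had medians of 46.7 with CTNNB1 siRNA and 51.3 with control siRNA.

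Gene names came from GEO's annotation of the platform (41097 with 1 symbol, 1801 with several, 11777 not listed), and symbols were updated to RefSeq through Entrez numbers for 41043. No genome build is named for the array, so probe sets have no coordinates, and those of the upstream windows are RefSeq's on GRCh38.p14. Log2 ratios were taken without further normalization, with the floor, filter and 2-fold rule stated in the results, in Python 3.11.15 with pandas 2.3.3, numpy 2.4.6 and statsmodels 0.14.6 (loess span 0.3). The calculations were tested on simulated arrays. Named were all members and family genes, CTNNB1 and 3 targets, and from each signalling list the genes past 2-fold and up to 4 others with the largest absolute ratio. The members and lists were chosen with earlier results of these data known. The number of arrays limits the precision. Alternatives were 4 scalings, 2 floors, 2 filters and 2 probe set choices.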

Additional observations from a re-analysis of the deposited data

How the results depend on the processing

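Of the members, none passed 2-fold as deposited. With scaling to a common median 1 was higher (EFNA1), and with no filter 1 was lower (EFNB2), since dim probe sets then entered and 9 members were counted. The median of the members was between 0.13 and 0.69 over the 10 alternatives, the highest with the 75th percentile filter, which 3 members passed. The lowest came with the median over probe sets, where all genes were at 0.14. The median of the other ephrins was -0.60 without _x_at and _s_at probe sets, where 1 gene remained. Of the signalling genes, none was 2-fold lower (a count of 0) after quantile normalization, scaling to a common median or loess, with the floor at the median, with the filter at the 75th percentile or without _x_at and _s_at probe sets, and 3 were with no filter. The count of higher ones was 2 with scaling to a common median and 0 without _x_at and _s_at probe sets, which leaves out the LIMK1 probe set. Over all genes 298 were 2-fold lower and 287 higher. These counts were 183 and 472 after common-median scaling, 448 and 163 on centring, 1275 and 722 with no filter, and 34 and 139 with the filter at the 75th percentile. With the floor at the median 160 were lower. The median log2 ratio of all genes was 0.29 with scaling to a common median, -0.02 after loess and -0.03 after quantile normalization. CTNNB1, AXIN2, NKD1, LGR5, SRC and LIMK1 kept their sign in the 10, 10, 9, 9, 8 and 9 alternatives in which they entered. The EPHB4 probe set 216680_s_at did so in the 6 scalings and floors, and the EFNB2 probe set 202668_at in all of these but the floor at the median. Where a gene had 1 bright entering probe set, as for EFNA1, AXIN2 and LIMK1, only the 4 scalings could change its ratio. Probe sets of non-members were not recomputed singly. No paired analysis was possible because each group had 1 array. Low signal limits what can be said of EFNB2, EPHA4 and EPHB3.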
